A study of Mus musculus with 4 samples.

Results

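Growing oocyte and egg genes were read in RNA-seq counts from 4 libraries, labelled as primordial germ cells of the mouse. The set held 35 genes, named as a list and found in the count table by Ensembl identifier, out of 53715 genes in all. It was put together after values of these libraries had been seen, so the levels below describe the libraries, and the comparison of the labels was not used to test the set. The embryos were at E12.5 and on the C57BL/6 background. Of the libraries, 2 were labelled Rif1 knockout (Rif1_KO) and 2 wild type (WT). Each was made from 1000 magnetically sorted cells with a modified Smart-seq2 protocol, which copies whole transcripts of few cells into cDNA, and Tn5 transposase. Rif1 encodes a chromatin protein of replication timing and DNA break repair. How the knockout was made, the sex of the embryos, the sorting marker and whether the libraries of a label came from separate embryos are not given in the sources used here, so any p-value here speaks of the scatter of these libraries alone, and that scatter may be technical.

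Oocytes form when female germ cells enter meiosis in the fetal ovary and then arrest. Most of the genes described here are known for the growth phase that follows birth, when the oocyte builds its zona pellucida, signals to granulosa cells through secreted factors, and stores RNA and protein for the egg and early embryo. Transcription factors such as NOBOX, FIGLA, SOHLH1 and LHX8 are known to switch on this programme in the mouse ovary. Primordial germ cells of mid-gestation, before or around meiotic entry, are known for other genes, such as Ddx4 and Dazl.

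Total counts were 12071903 and 14421298 under the label Rif1_KO (replicate 1 before replicate 2 wherever a label has a pair of values), against 12768932 and 11724630 under the label WT. Levels are CPM, counts per 1000000 of the library total after TMM scaling (a scaling by the trimmed mean of gene ratios between libraries). Rif1 had 85.6 and 63.4 CPM under the label Rif1_KO, against 43.4 and 4.69 CPM under the label WT, so this gene goes against the labels and libraries are named by label throughout. The summed level of germ cell markers was low in 3 of the 4 libraries, against the labelled cell type. The 18 gonadal germ cell markers summed to 32.5 and 38.0 CPM under the label Rif1_KO, against 49.0 and 421 CPM under the label WT. At least 10 counts were reached by 9 of them in each library labelled Rif1_KO, against 5 in WT replicate 1 and 10 in WT replicate 2. Haemoglobin genes took 1.08% and 0.555% of counts under the label Rif1_KO, against 11.8% and 8.92% under the label WT.

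The oocyte and egg genes were present mainly in 1 of the 4 libraries, the one labelled Rif1_KO replicate 2. Of the 35 genes, 7 and 29 had at least 10 counts under the label Rif1_KO, against 4 and 10 under the label WT. Over the whole table, 28.3% and 30.2% of genes reached 10 counts under the label Rif1_KO, against 24.8% and 25.3% under the label WT, so the step between libraries was far smaller for genes in general. The median count of the 35 genes was 4.0 and 104.0 under the label Rif1_KO, against 4.0 and 5.0 under the label WT. Their counts added to 433 and 5423 under the label Rif1_KO, against 429 and 551 under the label WT, and 79.3% of all their counts in the series lay in Rif1_KO replicate 2. Of 1000000 deposited counts, 35.9 fell on these genes in Rif1_KO replicate 1 (exact Clopper-Pearson 95% bounds 32.6 and 39.4) and 376 in Rif1_KO replicate 2 (366 to 386), against 33.6 in WT replicate 1 (30.5 to 36.9) and 47.0 in WT replicate 2 (43.2 to 51.1). These intervals cover counting error only, since reads without molecular identifiers are not independent molecules. The library labelled Rif1_KO replicate 2 was also the deepest of the series. In RNA from a mixed sample, fewer cells of a type and less RNA per cell cannot be told apart.

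**Figure D1:**
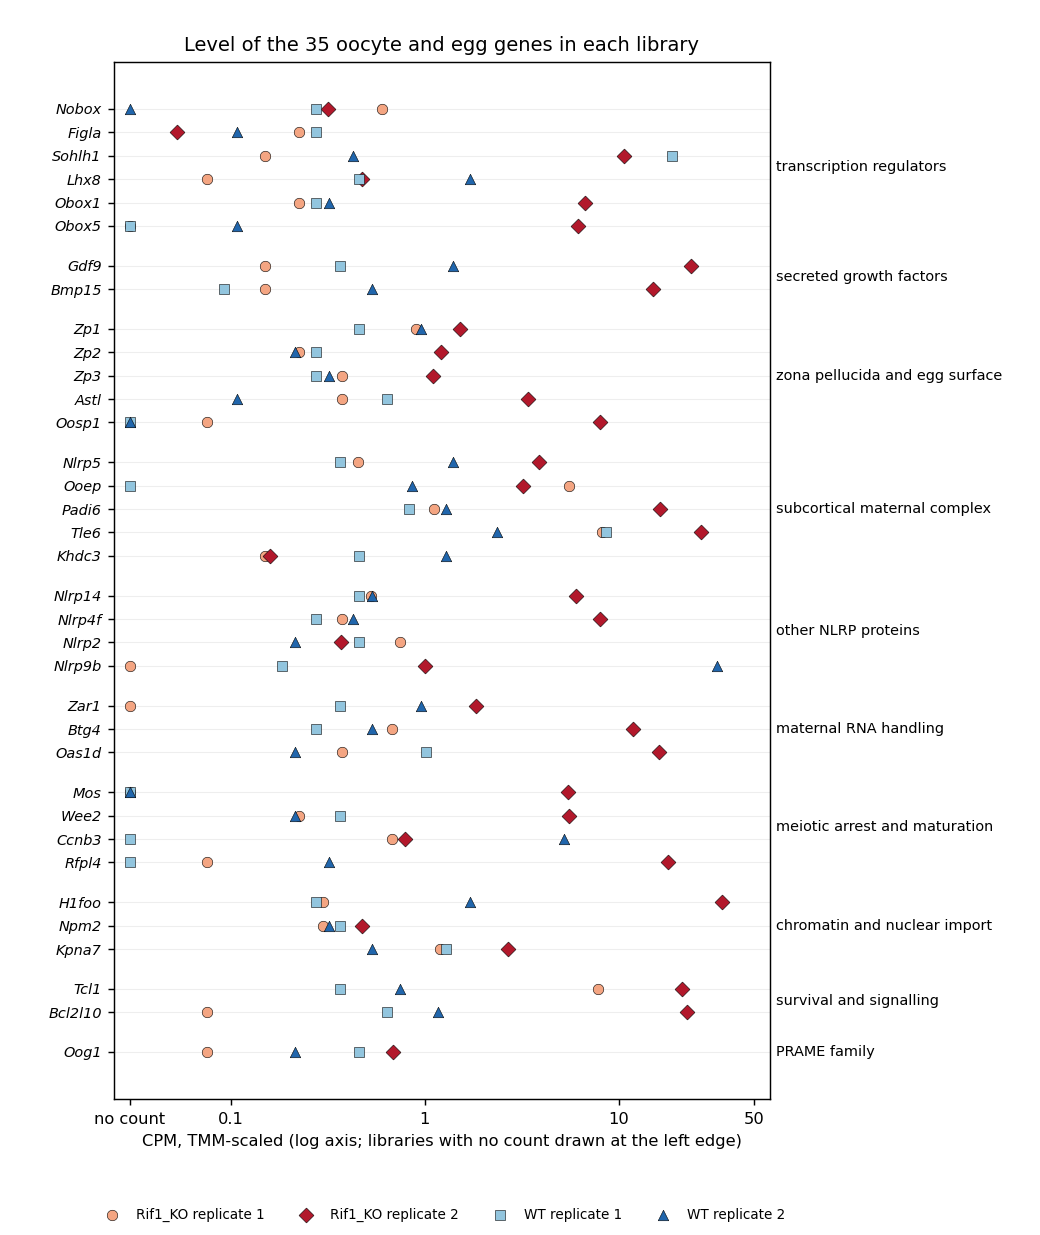
Level of each of the 35 oocyte and egg genes in the 4 libraries, grouped by role. The horizontal log axis gives TMM-scaled CPM, each point is 1 library, and libraries with no count stand at the left edge. For most genes the diamond of Rif1_KO replicate 2 lies apart to the right, up to 34.2 CPM for H1foo; Nlrp9b and Ccnb3 are highest in WT replicate 2, and Sohlh1 in WT replicate 1.

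As a difference of labels the pattern was not stable. The summed level was 32.4 and 285 CPM under the label Rif1_KO, against 39.3 and 58.8 CPM under the label WT, a ratio of means of 3.24, and of 5.11 on the deposited totals without TMM scaling. Without Rif1_KO replicate 2 the ratio was 0.661, and without Rif1_KO replicate 1 it was 5.82. The median difference over the 35 genes of log2(CPM + 1), Rif1_KO minus WT, was 1.13, against -0.04 over all 45215 genes with a count; without Rif1_KO replicate 2 it was -0.05. An exact permutation of 2 libraries against 2 has 0.33 as its smallest p, and neither value was tested. Levels of the labels did not overlap for 6 of the 35 genes with higher values under Rif1_KO and for 1 with lower values (Khdc3), where 12.1% and 18.1% of all genes with a count did so. In the edgeR quasi-likelihood fit over 15466 genes, 14 of the 35 passed the filter on low counts, which asks for enough counts in 2 libraries, and 21 did not. Of those 14, 0 were called in either direction at an adjusted p under 0.05, beside 0.0% of all tested genes called higher and 0.0129% called lower. At an unadjusted p under 0.05 edgeR took 1 of the 14, Tcl1, where 5.35% of all genes were higher and 3.05% lower. DESeq2 also called 1, Tcl1, where it called 2.13% of all genes higher and 1.24% lower. Without the filter on low counts all 35 were fitted among 45215 genes, and edgeR called 0 of them (0.0398% of all genes higher, 0.0796% lower). Of the 35, 14 had an unadjusted p under 0.05 in that fit, not split by direction (4.33% of all genes higher, 2.72% lower). The set was put together with values of these libraries known, so that count describes it and tests nothing.

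Library by library, 28 of the 35 genes had at least 20 counts somewhere, as did 17132 genes of the table. Of these 28, 24 had their highest CPM in Rif1_KO replicate 2, where 23.5% of the 17132 genes had theirs. The highest library was Rif1_KO replicate 1 for 1 gene (23.3% of all), WT replicate 1 for 1 (26.5%) and WT replicate 2 for 2 (26.6%). At least 10-fold above each other library (with 3 counts as the floor of a library) in Rif1_KO replicate 2 were 15 of the 28, where 1.42% of all genes were. The corresponding numbers were 0 in Rif1_KO replicate 1 (1.03% of all genes), 0 in WT replicate 1 (1.78%) and 1 in WT replicate 2 (2.43%), which was Nlrp9b. At least 20 counts were reached by 3 and 26 members under the label Rif1_KO, against 2 and 3 under the label WT. Most of the 28 thus passed the filter on counts only through Rif1_KO replicate 2, the library where they were high. Because of this, and because the genes were collected with these values known, the counts describe the set and test nothing.

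**Figure D2:**
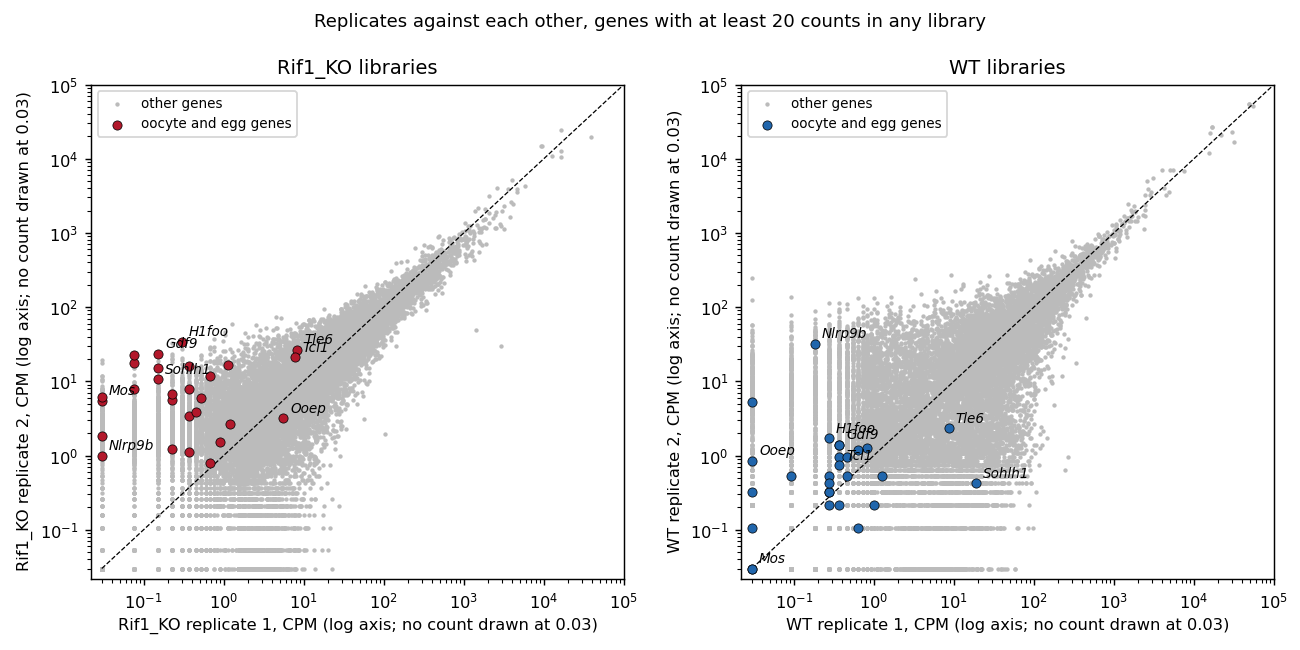
CPM of replicate 2 against replicate 1 for the libraries labelled Rif1_KO (left) and WT (right), on log axes, for the 17132 genes with at least 20 counts in any library, with libraries of no count drawn at 0.03. Large points are the 28 oocyte and egg genes in this range, and on the left Ooep is the one that lies below the dashed line of equal values. On the right they lie on both sides of it, with Nlrp9b far above and Sohlh1 far below.

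Among the secreted growth factors, Gdf9 and Bmp15 were high in the same library. Gdf9 (ENSMUSG00000018238.6, chromosome 11, 53431023 to 53437904, mm10), whose protein drives granulosa cell growth around the oocyte, had 2 and 448 counts under the label Rif1_KO, against 4 and 13 under the label WT. Its levels were 0.150 and 23.5 CPM under the label Rif1_KO, against 0.366 and 1.39 CPM under the label WT. Bmp15 (ENSMUSG00000023279.7, chromosome X, 6314107 to 6320721), for the partner of GDF9, had 2 and 288 counts (0.150 and 15.1 CPM) under the label Rif1_KO, against 1 and 5 (0.0915 and 0.533 CPM) under the label WT. For both genes 1 library was high and the other 3 were near the level of a few counts, so the labels overlapped. The level in Rif1_KO replicate 2 was 17 times that of the next library for Gdf9 (95% counting interval 9.83 to 32.1) and 28.4 times for Bmp15 (12 to 88.1). By edgeR the log2 fold change of Gdf9 was 3.75 (SE 2.23, adjusted p = 0.706), and it was -2.39 without Rif1_KO replicate 2.

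The transcription regulators did not move as a group. Nobox, Figla and Lhx8, homeobox and helix-loop-helix factors that are known to activate oocyte genes, stayed at 16 counts or fewer in every library. Nobox had 8 and 6 counts under the label Rif1_KO, against 3 and 0 under the label WT. Figla had 3 and 1 counts under the label Rif1_KO, against 3 and 1 under the label WT. Lhx8 had 1 and 9 counts under the label Rif1_KO, against 5 and 16 under the label WT. None of these regulators was therefore high in the library where Gdf9 and Bmp15 were. Sohlh1, a helix-loop-helix factor of early follicles and of spermatogonia, had 2 and 202 counts (0.150 and 10.6 CPM) under the label Rif1_KO, against 206 and 4 (18.9 and 0.427 CPM) under the label WT. It was thus high in 1 library of each label. The homeobox gene Obox1 had 3 and 127 counts (0.224 and 6.67 CPM) under the label Rif1_KO, against 3 and 3 (0.275 and 0.320 CPM) under the label WT. Obox5, of the same family, had 0 and 117 counts (0.00 and 6.15 CPM) under the label Rif1_KO, against 0 and 1 (0.00 and 0.107 CPM) under the label WT. Obox1 shares exon sequence with Obox2 in the gene models, and reads over both were counted for both.

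Promoters are shown for members whose levels differ in pattern: 4 that were high only in Rif1_KO replicate 2 (Bmp15, Rfpl4, Padi6 and Oosp1), Tcl1, which was high in both Rif1_KO libraries, and the zona gene Zp3, which stayed low in all. Each runs 5′ to 3′ on the gene's strand from 250 bases before to 50 bases after the RefSeq start (GRCm38.p6, the assembly of mm10). The windows are chrX:6320675-6320974 (minus strand) for Bmp15, chr7:5116862-5117161 (minus) for Rfpl4, chr4:140742594-140742893 (minus) for Padi6, chr19:11691002-11691301 (minus) for Oosp1, chr5:135979855-135980154 (plus) for Zp3 and chr12:105222688-105222987 (minus) for Tcl1. Capitals mark, on either strand, CANNTG (the E-box that FIGLA and SOHLH1 are known to bind), TAATTG and TAATTA (bound by NOBOX) and TGATTG (bound by LHX8), and no match overlaps another in these 6 windows.
Bmp15: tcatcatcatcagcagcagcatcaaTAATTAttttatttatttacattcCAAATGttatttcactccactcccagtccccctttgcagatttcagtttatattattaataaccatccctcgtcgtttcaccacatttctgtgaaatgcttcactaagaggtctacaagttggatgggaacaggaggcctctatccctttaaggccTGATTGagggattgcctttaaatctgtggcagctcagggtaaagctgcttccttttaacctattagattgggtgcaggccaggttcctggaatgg
Rfpl4: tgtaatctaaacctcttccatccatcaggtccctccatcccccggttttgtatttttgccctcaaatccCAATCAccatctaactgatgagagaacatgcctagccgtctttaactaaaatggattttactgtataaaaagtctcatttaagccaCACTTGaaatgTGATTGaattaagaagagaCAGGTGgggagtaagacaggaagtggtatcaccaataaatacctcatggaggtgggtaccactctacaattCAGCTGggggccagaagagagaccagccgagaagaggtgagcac
Padi6: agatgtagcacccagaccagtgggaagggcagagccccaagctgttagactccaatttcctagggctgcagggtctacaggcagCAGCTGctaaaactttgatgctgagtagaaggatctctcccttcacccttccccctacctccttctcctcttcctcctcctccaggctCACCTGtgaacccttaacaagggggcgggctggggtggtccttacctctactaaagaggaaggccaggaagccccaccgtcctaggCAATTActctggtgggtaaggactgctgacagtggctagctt
Oosp1: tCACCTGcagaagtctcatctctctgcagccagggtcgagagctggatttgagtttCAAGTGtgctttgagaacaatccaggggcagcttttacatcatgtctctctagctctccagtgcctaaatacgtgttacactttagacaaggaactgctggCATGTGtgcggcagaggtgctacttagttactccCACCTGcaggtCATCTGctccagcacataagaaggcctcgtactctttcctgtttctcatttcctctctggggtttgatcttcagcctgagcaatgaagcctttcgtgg
Tcl1: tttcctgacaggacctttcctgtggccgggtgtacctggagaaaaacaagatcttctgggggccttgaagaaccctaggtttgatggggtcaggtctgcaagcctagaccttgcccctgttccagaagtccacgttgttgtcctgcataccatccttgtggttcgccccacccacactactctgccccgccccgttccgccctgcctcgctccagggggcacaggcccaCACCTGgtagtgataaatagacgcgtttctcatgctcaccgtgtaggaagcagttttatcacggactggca
Zp3: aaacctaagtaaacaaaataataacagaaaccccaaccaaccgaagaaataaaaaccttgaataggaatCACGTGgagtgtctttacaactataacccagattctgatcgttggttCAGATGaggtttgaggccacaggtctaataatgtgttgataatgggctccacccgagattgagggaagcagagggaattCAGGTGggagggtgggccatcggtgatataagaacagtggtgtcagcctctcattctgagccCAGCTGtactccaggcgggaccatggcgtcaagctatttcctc
Of the 35 genes 26 had a promoter window, and Gdf9, Zp1, Zp2, Nlrp14, Oas1d, Mos, H1foo, Npm2 and Bcl2l10 are named only. For the 6 windows above, the RefSeq start lay at most 99 bases from the start of the counted gene model. Among the others it lay 158309 bases away for Obox1, 74394 for Kpna7, 55100 for Btg4, 16558 for Nlrp9b and 3775 for Wee2. CANNTG was in 23 of the 26 windows and in 72.3% of all 32544 promoter windows of this length, TAATTG in 3 (8.01% of all), TAATTA in 3 (5.29%) and TGATTG in 5 (14.0%). Each of the 6 windows above held CANNTG at least 1 time, with 5 matches in Oosp1, 4 in Zp3, 3 in Rfpl4, 2 in Padi6 and 1 each in Bmp15 and Tcl1. A match is a run of letters in the window and says nothing of binding.

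The genes of the zona pellucida, the glycoprotein coat of the egg, were low in all 4 libraries. Zp1 had 12 and 29 counts (0.898 and 1.52 CPM) under the label Rif1_KO, against 5 and 9 (0.458 and 0.960 CPM) under the label WT. Zp2 had 3 and 23 counts (0.224 and 1.21 CPM) under the label Rif1_KO, against 3 and 2 (0.275 and 0.213 CPM) under the label WT. Zp3 had 5 and 21 counts (0.374 and 1.10 CPM) under the label Rif1_KO, against 3 and 3 (0.275 and 0.320 CPM) under the label WT. Each was highest in Rif1_KO replicate 2, but its counting interval against the next library reached down to 0.732 times for Zp1, 1.33 times for Zp2 and 1.08 times for Zp3. Astl, for ovastacin, the protease that cleaves the zona protein ZP2 after fertilization, had 5 and 65 counts (0.374 and 3.42 CPM) under the label Rif1_KO, against 7 and 1 (0.641 and 0.107 CPM) under the label WT. Oosp1, which encodes an oocyte-secreted protein, had 1 and 152 counts (0.0748 and 7.99 CPM) under the label Rif1_KO, against 0 and 0 under the label WT. Against the limit of 3 counts in the WT libraries, 0.275 and 0.320 CPM, only Rif1_KO replicate 2 was high for Oosp1, and Rif1_KO replicate 1 lay below that limit.

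The subcortical maternal complex, a protein assembly under the egg membrane that early mouse embryos need, was unevenly represented. Tle6, its transducin-like member, had 110 and 508 counts (8.23 and 26.7 CPM) under the label Rif1_KO, against 94 and 22 (8.60 and 2.35 CPM) under the label WT. Ooep, a KH-domain member, had 74 and 61 counts (5.54 and 3.21 CPM) under the label Rif1_KO, against 0 and 8 (0.00 and 0.853 CPM) under the label WT. Padi6, a peptidylarginine deiminase relative, had 15 and 313 counts (1.12 and 16.4 CPM) under the label Rif1_KO, against 9 and 12 (0.824 and 1.28 CPM) under the label WT. Tle6 had at least 22 counts in every library, Ooep was higher in both libraries labelled Rif1_KO than in either labelled WT, and Padi6 was high in the same library as Gdf9. Nlrp5, also known as Mater, had 6 and 74 counts (0.449 and 3.89 CPM) under the label Rif1_KO, against 4 and 13 (0.366 and 1.39 CPM) under the label WT. Khdc3, also known as Filia, had 2 and 3 counts under the label Rif1_KO, against 5 and 12 under the label WT, and its exons overlap those of the model Gm20509. The edgeR log2 fold change was 3.35 (SE 1.73) for Ooep, with an adjusted p of 0.654, and 2.39 to 8.99 with 1 library left out.

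Other NLRP genes, relatives of Nlrp5 that oocytes express, split between libraries. Nlrp14 had 7 and 114 counts (0.524 and 5.99 CPM) under the label Rif1_KO, against 5 and 5 (0.458 and 0.533 CPM) under the label WT. Nlrp4f had 5 and 152 counts (0.374 and 7.99 CPM) under the label Rif1_KO, against 3 and 4 (0.275 and 0.427 CPM) under the label WT. Nlrp9b (chromosome 7, 19991465 to 20073306) had 0 and 19 counts (0.00 and 0.998 CPM) under the label Rif1_KO, against 2 and 301 (0.183 and 32.1 CPM) under the label WT. Nlrp9b was therefore highest in WT replicate 2, the library with the most Ddx4 and Dazl, at 32.1 times the next library (20.2 to 54.1). Its edgeR log2 fold change was -4.96, and 1.43 without WT replicate 2. Its exons overlap those of the model Gm18877. Nlrp2 was at 10 counts or fewer in each library. Nlrp9b alone made up 32.1 of the 58.8 CPM that the 35 genes had in WT replicate 2.

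Of 3 genes of maternal RNA handling, Btg4 and Oas1d were high in Rif1_KO replicate 2. Btg4, whose protein recruits the deadenylase that clears maternal mRNA at egg maturation, had 9 and 224 counts (0.673 and 11.8 CPM) under the label Rif1_KO, against 3 and 5 (0.275 and 0.533 CPM) under the label WT. Oas1d, an oligoadenylate synthetase relative of the ovary, had 5 and 306 counts (0.374 and 16.1 CPM) under the label Rif1_KO, against 11 and 2 (1.01 and 0.213 CPM) under the label WT. Zar1, which encodes an RNA-binding protein that stores maternal mRNA, had 0 and 35 counts (0.00 and 1.84 CPM) under the label Rif1_KO, against 4 and 9 (0.366 and 0.960 CPM) under the label WT. Zar1 was low in every library, and its counting interval against the next library, WT replicate 2, was 0.903 to 4.53 times.

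Regulators of meiotic arrest and maturation gave the clearest case of a gene seen in 1 library. Mos, the kinase that holds the mature egg in metaphase, had 0 and 104 counts (0.00 and 5.47 CPM) under the label Rif1_KO, against 0 and 0 under the label WT. It was at least 17.1-fold higher in Rif1_KO replicate 2 than the floor of 3 counts in any other library. Wee2, the oocyte kinase that keeps CDK1 inactive, had 3 and 105 counts (0.224 and 5.52 CPM) under the label Rif1_KO, against 4 and 2 (0.366 and 0.213 CPM) under the label WT. Rfpl4 (chromosome 7, 5109787 to 5116950), a RING-finger gene of oocytes, had 1 and 341 counts (0.0748 and 17.9 CPM) under the label Rif1_KO, against 0 and 3 (0.00 and 0.320 CPM) under the label WT. These genes were high in the same single library. Ccnb3, a B-type cyclin needed for meiotic anaphase in mouse oocytes, had 9 and 15 counts (0.673 and 0.788 CPM) under the label Rif1_KO, against 0 and 49 (0.00 and 5.22 CPM) under the label WT. Like Nlrp9b it was highest in WT replicate 2.

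H1foo had the highest level of the set. H1foo (ENSMUSG00000042279.13, chromosome 6, 115944938 to 115950236), the linker histone of oocytes, had 4 and 650 counts (0.299 and 34.2 CPM) under the label Rif1_KO, against 3 and 16 (0.275 and 1.71 CPM) under the label WT. The means were 17.2 ± 23.9 CPM under the label Rif1_KO and 0.990 ± 1.01 CPM under the label WT (SD, n = 2 each). The SD under the label Rif1_KO exceeded the mean because a single library carried the signal. Its edgeR log2 fold change was 4.12 (SE 2.26, adjusted p = 0.679), and -1.6 without Rif1_KO replicate 2. Kpna7, an importin of the egg and early embryo, had 16 and 51 counts (1.20 and 2.68 CPM) under the label Rif1_KO, against 14 and 5 (1.28 and 0.533 CPM) under the label WT. Npm2, a chaperone that remodels sperm chromatin, was at 9 counts or fewer in each library. Kpna7 and Npm2 models share exon positions with Arpc1a and Xpo7, so reads of those widely expressed genes can enter their counts.

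Tcl1 differed from most of the set in being present in both libraries labelled Rif1_KO. Tcl1 (ENSMUSG00000041359.14, chromosome 12, 105216750 to 105222793), for a co-activator of AKT kinases in oocytes, early embryos and lymphoid cells, had 104 and 405 counts (7.78 and 21.3 CPM) under the label Rif1_KO, against 4 and 7 (0.366 and 0.746 CPM) under the label WT. The labels did not overlap, and the higher Rif1_KO library was 2.74 times the lower (2.20 to 3.43). By edgeR the log2 fold change was 4.69 (SE 1.57, adjusted p = 0.571), while the DESeq2 adjusted p was 0.00651. With 1 library left out it was 3.85 to 5.33. Bcl2l10, a BCL2 relative of oocytes, had 1 and 426 counts (0.0748 and 22.4 CPM) under the label Rif1_KO, against 7 and 11 (0.641 and 1.17 CPM) under the label WT. Bcl2l10 was again high in Rif1_KO replicate 2 only, and Oog1, of the PRAME family, was at 13 counts or fewer in each library.

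Per kilobase of exon, the order of levels within Rif1_KO replicate 2 ran from H1foo (28.4 CPM per kilobase) through Bcl2l10 (18.3), Gdf9 (11.6), Tcl1 (11.5), Rfpl4 (10.4) and Tle6 (8.65). On the same scale Zp3 was at 0.834, Zp1 at 0.769 and Zp2 at 0.444 CPM per kilobase in that library. The zona genes were thus far below the linker histone and the growth factors in the same cDNA. The highest levels per kilobase outside that library were 14.6 for Sohlh1 in WT replicate 1 and 8.62 for Nlrp9b in WT replicate 2.

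Further oocyte genes related to the members, 26 paralogues and neighbours of the same families, were highest in the same library where they reached 20 counts. This list was made by family membership, with the levels of the 35 genes known. It summed to 6.81 and 66.1 CPM under the label Rif1_KO, against 7.69 and 7.25 CPM under the label WT. All 15 of its genes with at least 20 counts in any library had their highest CPM in Rif1_KO replicate 2, beside 23.5% of all genes, and 5 were at least 10-fold above each other library, beside 1.42%. Each of these 15 reached 20 counts in that library only. They thus passed the filter on counts through the library where they were high, and their share tests nothing. Oog3, a PRAME family gene, had 1 and 233 counts under the label Rif1_KO, against 0 and 1 under the label WT. Obox2, whose exons overlap those of Obox1, had 2 and 140 counts under the label Rif1_KO, against 2 and 13 under the label WT. Tcl1b1, a Tcl1 relative, had 7 and 131 counts under the label Rif1_KO, against 3 and 1 under the label WT, and so lacked the higher level in Rif1_KO replicate 1 that Tcl1 had. Omt2a had 3 and 113 counts under the label Rif1_KO, against 7 and 0 under the label WT. The 11 other genes of this list were under 20 counts in every library and had their highest values in different libraries, such as Zar1l with 17 and 2 counts under the label Rif1_KO, against 3 and 0 under the label WT, and only Obox2 passed the filter of the edgeR fit, with a log2 fold change of 2.26 that was not called.

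**Figure D3:**
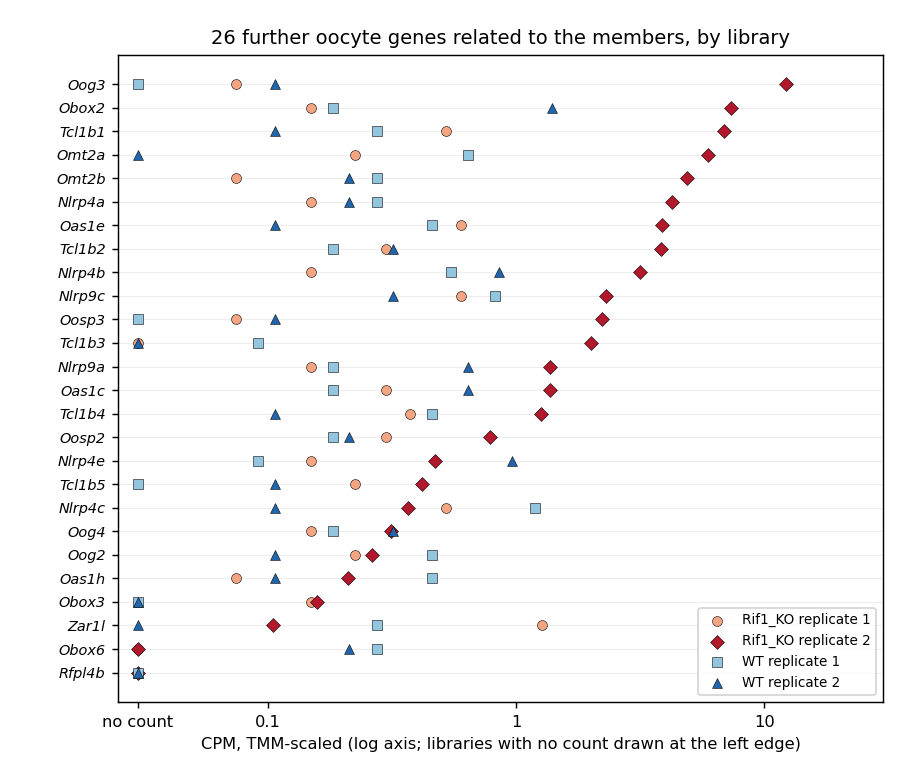
CPM of 26 further oocyte genes related to the members, on a log axis, with 1 point per library and genes ordered by their level in Rif1_KO replicate 2. The diamond of Rif1_KO replicate 2 is the rightmost point for the top 15 genes with at least 20 counts, from 12.2 CPM for Oog3 downward.

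Other oocyte lists were mixed, and they also hold widely expressed genes. Of 18 further maturation and fertilization genes, 15 reached 20 counts somewhere. Of these, 6 were highest in Rif1_KO replicate 1, beside 23.3% of all genes, and 3 in each other library. The largest were Spin1, Ythdf2, Cd9 and Rnf114, widely expressed genes; Spin1 had 483 and 271 CPM under the label Rif1_KO, against 109 and 275 CPM under the label WT. The 3 highest in Rif1_KO replicate 2 were Gja4, Fbxo43 and Pabpn1l, and they and Izumo1r are named after their values were seen. Gja4, for the connexin that joins oocyte and granulosa cells, had 5 and 59 counts under the label Rif1_KO, against 2 and 6 under the label WT. Fbxo43, for the meiotic inhibitor EMI2, had 9 and 53 counts under the label Rif1_KO, against 4 and 7 under the label WT. Pabpn1l, for an egg poly(A)-binding protein, had 4 and 43 counts under the label Rif1_KO, against 1 and 3 under the label WT. These 3 of the 15 were highest in the same library as most of the 35, beside 23.5% of all genes. The list as a whole thus did not follow the 35 genes. Izumo1r encodes the egg's receptor of the sperm protein IZUMO1. It had 82 and 4 counts under the label Rif1_KO, against 4 and 3 under the label WT, so an egg surface gene was high in the other Rif1_KO library. Among 9 other oocyte regulators and RNA-binding proteins, Dppa3, a maternal factor also known from primordial germ cells, had 157 and 109 counts under the label Rif1_KO, against 111 and 1532 under the label WT. Foxo3 and Zfp57 had at least 474 counts in every library, and Cpeb1 had 0 and 47 counts under the label Rif1_KO, against 3 and 9 under the label WT. The 23 broadly expressed relatives of the members, led by Npm1, H1f0, Ccnb2 and Ccnb1, summed to 2160 and 1820 CPM under the label Rif1_KO, against 2050 and 1900 CPM under the label WT. Their sums thus differed little between the 4 libraries, but single relatives differed more. Npm1 led each sum, at 1360 and 906 CPM under the label Rif1_KO, against 1060 and 628 CPM under the label WT. Bcl2l1 had 2.02 and 5.68 CPM under the label Rif1_KO, against 90.4 and 19.6 CPM under the label WT. Of 21 relatives with at least 20 counts in any library, 4 were highest in Rif1_KO replicate 2, beside 23.5% of all genes.

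**Figure D4:**
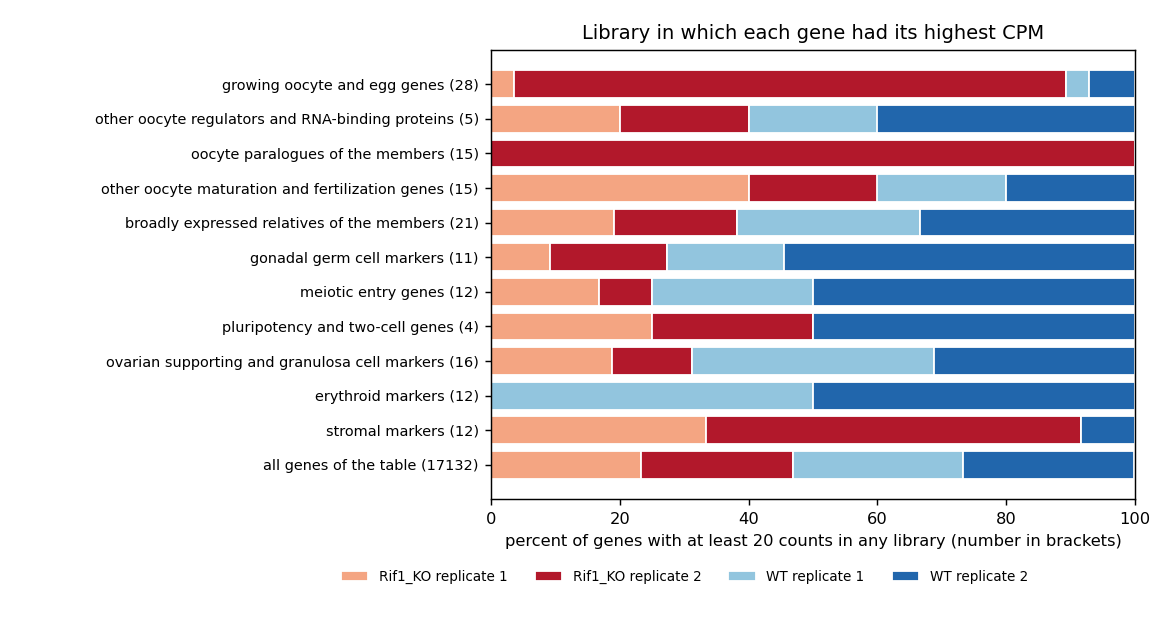
For each gene list, the percent of its genes with at least 20 counts in any library (number in brackets) that had their highest CPM in each library, with all 17132 such genes in the bottom bar. The dark red part, Rif1_KO replicate 2, takes 24 of 28 oocyte and egg genes and 15 of 15 paralogues, and 23.5% of all genes. Those 15 paralogues, and most of the 28 oocyte and egg genes, reached 20 counts in that library only.

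Of 11 germ cell markers with at least 20 counts in any library, 6 were highest in WT replicate 2 (26.6% of all genes) and 2 in Rif1_KO replicate 2 (23.5%). The summed level of the supporting and granulosa cell markers, a list that also holds Sox9, Dhh and Upk3b, was similar in all 4 libraries. That sum was led by Kitl, Fst and Wt1, and some markers differed more. Foxl2, named after its values were seen, had 10.8 and 5.57 CPM under the label Rif1_KO, against 15.1 and 1.92 CPM under the label WT. Wnt4 differed less, with 40.2 and 44.2 CPM under the label Rif1_KO, against 68.3 and 57.8 CPM under the label WT. Of 18 gonadal germ cell markers, Dazl had 2.02 and 4.05 CPM under the label Rif1_KO, against 12.9 and 194 CPM under the label WT. Ddx4 had 1.05 and 0.526 CPM under the label Rif1_KO, against 0.641 and 58.8 CPM under the label WT. Rhox9 had 3.37 and 0.0526 CPM under the label Rif1_KO, against 0.275 and 112 CPM under the label WT. Prdm14 had 0.449 and 0.105 CPM under the label Rif1_KO, against 19.8 and 18.2 CPM under the label WT, and so was higher in both WT libraries. Other markers of the list were highest in the library with the oocyte genes and are named after their values were seen. Prdm1, for a repressor that specifies germ cells and acts in several other cell types, had 0.898 and 17.6 CPM under the label Rif1_KO, against 0.275 and 0.320 CPM under the label WT. Tdrd9, a piRNA pathway gene, had 1.20 and 4.26 CPM under the label Rif1_KO, against 0.732 and 1.92 CPM under the label WT. Meiotic entry genes (16) were highest in WT replicate 2 for 6 of the 12 that reached 20 counts (26.6% of all genes), and in Rif1_KO replicate 2 for 1 (23.5%). The 19 supporting and granulosa cell markers summed to 995 and 1040 CPM under the label Rif1_KO, against 1080 and 1020 CPM under the label WT. Kitl, for the ligand of the germ cell receptor KIT, had 416 and 389 CPM under the label Rif1_KO, against 342 and 206 CPM under the label WT. Amhr2, for the receptor of anti-Müllerian hormone, had 221 and 1297 counts under the label Rif1_KO, against 521 and 939 under the label WT. Of the markers under 20 counts in every library, Amh and Cyp19a1 had at most 6 counts and Fshr at most 3. Pluripotency and two-cell genes (16) summed to 23.7 and 12.9 CPM under the label Rif1_KO, against 13.5 and 56.1 CPM under the label WT. Stromal markers (12) summed to 1630 and 1360 CPM under the label Rif1_KO, against 579 and 443 CPM under the label WT. Of the 12, 7 were highest in Rif1_KO replicate 2 (23.5% of all genes) and 4 in Rif1_KO replicate 1 (23.3%). Erythroid markers (13) summed to 9820 and 4240 CPM under the label Rif1_KO, against 138000 and 112000 CPM under the label WT. Of 12 stromal markers 9 had a fitted change above 0, and of 12 tested erythroid markers 0 did, where the median change over all 15466 tested genes was -0.111. The part of any of these cells in the oocyte gene values was not tested. Over these 10 lists edgeR called 2 genes, both erythroid and lower, beside 0.0129% of all genes tested. DESeq2 called 3 of 10 germ cell, 1 of 15 supporting cell, 9 of 12 erythroid, 2 of 21 broadly expressed and 1 of 12 maturation genes lower, beside 1.24% of all genes tested. It called 1 of 12 stromal genes higher, beside 2.13%.

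Over the members of each list that passed the filter, the median edgeR log2 fold change, Rif1_KO against WT, is set beside -0.111 over all 15466 genes tested. It was -0.18 over 5 other oocyte regulators, 0.09 over 5 with upper-quartile factors, and 0.34 over 7 without WT replicate 2. It was -0.28 over 12 maturation and fertilization genes and -0.43 over 21 broadly expressed relatives. For gonadal germ cell markers it was -1.4 over 10, but 0.36 over the 13 that passed the filter without WT replicate 2. Values without WT replicate 2 thus differ in the genes as well as in the libraries. For meiotic entry genes it was -1 over 9 and for pluripotency and two-cell genes -0.78 over 3. For supporting and granulosa cell markers it was -0.18 over 15, for erythroid markers -4.04 over 12 and for stromal markers 1.6 over 12. These medians describe lists, and they were not tested.

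Genes next to the members were mostly not high in the same library. Of 196 other genes within 50 kb of a member, 78 had at least 20 counts in any library, and 23 of these were highest in Rif1_KO replicate 2, beside 23.5% of all genes. Of the 78, Omt2b and Cnga1 were at least 10-fold above each other library there (2 genes, beside 1.42% of all). The 6 neighbours with the highest CPM were Uqcrq, Rps20, Dppa5a, Ssbp1, Rsl24d1 and Adra2b. Uqcrq, a respiratory chain gene 192 bases from Gdf9, had 3139 and 3694 counts under the label Rif1_KO, against 3480 and 2397 under the label WT. Dppa5a, a germ cell and pluripotency gene 7932 bases from Ooep, had 457 and 43 counts under the label Rif1_KO, against 36 and 2242 under the label WT. Rps20, beside Mos, had 3497 and 3139 counts under the label Rif1_KO, against 2300 and 2629 under the label WT. Adra2b, beside Astl, had 4 and 4 counts under the label Rif1_KO, against 311 and 1240 under the label WT. None of the 6 was highest in the same library as the member beside it.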

How the data were processed

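Per the submitters' processing notes, the authors used Trim Galore, FastQC, HISAT2, SAMtools and featureCounts with mm10. Per the file headers, the deposited values are raw counts of read pairs per gene from featureCounts 1.6.2 on GENCODE M17, with a mapping quality of at least 30, reads over several genes counted for each, and no strand option. Antisense partners, overlapping genes and near-identical copies (Obox, Oog, Oas1, Nlrp and Rfpl4 families) are therefore uncertain, and reads that map to several copies can be lost.

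Groups and replicate numbers came from the sample titles. Symbols were looked up by Ensembl identifier, and 95 of 53715 identifiers had none. The 2 libraries of a label differed beyond sampling noise (chi-square per degree of freedom of 86.6 for Rif1_KO and 107 for WT). Genes were filtered with filterByExpr (minimum count 10) and fitted with edgeR 4.0.16 in R 4.3.3 (TMM factors of 1.11 and 1.32 for Rif1_KO, 0.856 and 0.8 for WT, quasi-likelihood test, Benjamini-Hochberg adjustment over all tested genes), and with DESeq2 1.42.0 as an alternative. The fit was checked on simulated counts. CPM use the deposited total times the TMM factor. Ratios between 2 libraries carry exact binomial (Clopper-Pearson) 95% intervals of counting error only. The members and lists were chosen with earlier results of these data known. Members with at least 20 counts in any library are given by library, and of each list and of the neighbours those with the highest CPM in any library are named. Alternatives were other scalings, no filter, DESeq2, a replicate block and each library left out.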

Additional observations from a re-analysis of the deposited data

How the results depend on the processing

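Genes called over the whole table numbered 2 in the main edgeR fit, 0 with upper-quartile factors, 54 without the filter, 521 with DESeq2, 7 with the replicate number as a block (replicate block), and 5 to 1345 with 1 library left out. Without WT replicate 1 there were 1345 and without WT replicate 2 890, fits in which the single WT library left is assumed to scatter as the other label does. Of the oocyte and egg genes 0 were called in the main fit, with the block and without the filter. DESeq2 called 1, Tcl1, higher, beside 2.13% of all genes. With 1 library left out 16 to 31 members were fitted instead of 14, so calls of members in those fits are not set beside these. The replicate numbers were not shown to pair the libraries (correlation of deviations -0.0243). Members with at least 3 counts were 22 and 34 under the label Rif1_KO, against 27 and 24 under the label WT. With at least 1 count they were 31 and 35, against 29 and 32. The contrast between libraries thus rests mainly on levels above a few counts. With 1 library left out the summed ratio (5.11 on deposited totals) was 0.661 to 5.82 and the median difference -0.05 to 1.71. Fold changes that turned sign then ranged from -5.89 to 3.67 for Sohlh1, -2.39 to 4.99 for Gdf9, -0.87 to 2.55 for Nlrp5, -10.44 to 1.43 for Nlrp9b, -0.67 to 5.25 for Oas1d, -2.77 to 6.42 for Ccnb3, -1.6 to 5.93 for H1foo and -3.35 to 4.71 for Bcl2l10. List medians ranged from -0.29 to 3.79 for paralogues, -0.96 to 0.34 for other oocyte regulators, -2.04 to 0.36 for germ cell markers and -0.26 to 0.89 for maturation genes. They ranged from -0.27 to 0.35 for broadly expressed relatives, -3.25 to 0.54 for meiotic, -0.89 to 0.74 for pluripotency, -0.13 to 0.6 for supporting and 0.83 to 2.13 for stromal genes. Each median was taken over the list genes that passed the filter in that fit, so the genes changed as well. Paralogues were 1 gene in the main fit and 3 to 18 with 1 library left out, and meiotic genes 9 and 11 to 15. The median of maturation genes was 0.62 without the filter, over 18 genes, and 0.1 with the replicate block, over 12. That of supporting cell markers was 0.08 with upper-quartile factors and 0.13 with the block. That of stromal markers was 1.87, 1.84 and 1.81 with upper-quartile factors, no filter and the block. The cause was not tested. Under alternatives chosen after seeing the data, the members at least 10-fold above each other library in Rif1_KO replicate 2 numbered 15 with the deposited totals and 15 with RLE factors, while such genes of the whole table numbered 493 and 226 against 243. The highest library was Rif1_KO replicate 2 for 24 members and 15 paralogues under each of these scalings.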

Other observations

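Genes outside the set and the lists were also seen mainly in the library labelled Rif1_KO replicate 2. They were chosen after their values were seen, among the genes at least 10-fold above each other library. Those with the largest ratio to the highest other library were taken, with 3 counts as the floor of a library. Tmem174 had 3 and 383 counts under the label Rif1_KO, against 1 and 3 under the label WT. Efcab1 had 4 and 322 counts under the label Rif1_KO, against 3 and 1 under the label WT. Elobl had 2 and 305 counts, Rnase12 1 and 302, and Trim61 3 and 258 under the label Rif1_KO, against 0 and 0 for each under the label WT. Gm48529 had 2 and 301 counts under the label Rif1_KO, against 3 and 1 under the label WT. C86187 had 2 and 288 counts under the label Rif1_KO, against 1 and 3 under the label WT. Such genes were found in every library. Over the whole table the same rule took 176 genes in Rif1_KO replicate 1 (1.03%) and 243 in Rif1_KO replicate 2 (1.42%). In WT replicate 1 it took 305 (1.78%) and in WT replicate 2 416 (2.43%). Of the oocyte and egg genes it took 0, 15, 0 and 1 in the same order.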
